A study of Mus musculus with 7 samples.

Results

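The genes described here are 8 markers of alternatively activated macrophages: Mrc1, Clec10a, Clec7a, Chil3, Retnla, Cd163, Folr2 and Mgl2. They were chosen by name, as were the gene lists used below, with earlier results of these data known. All 8 are among the 23337 genes in each of the 7 expression tables, Chil3 under its older name Chi3l3. RNA sequencing was done on cultured mouse macrophages, made from bone marrow by 7 days in M-CSF (25 ng/ml), the growth factor of the macrophage lineage. The donors were male mice of 6 to 8 weeks, per the labels. The 4 groups were Tgm2 knockout cells given LPS (KO LPS, n = 2), wild-type cells given LPS (WT LPS, n = 2), untreated knockout cells (KO M0, n = 1) and untreated wild-type cells (WT M0, n = 2). LPS, the endotoxin of Gram-negative bacteria that Tlr4 detects, was used at 10 ng/ml for 6 hours. The product of Tgm2, transglutaminase 2, crosslinks proteins and is itself often used as a marker of alternative activation. The labels name no Cre driver, so the knockout is taken as labelled, and no IL-4 or IL-13 is named among the treatments.

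Alternative activation is the macrophage state driven by the cytokines IL-4 and IL-13, which act through the receptor chain Il4ra and the transcription factor Stat6, and it is set against the state driven by LPS. Several of its markers are surface receptors that bind sugars or other ligands and are also found on macrophages resident in tissues without any added cytokine. Mrc1 (CD206) is the mannose receptor. Clec10a and Mgl2 are lectins for galactose and N-acetylgalactosamine made by neighbouring genes. Clec7a (dectin-1) binds fungal beta-glucan. Cd163 takes up haemoglobin bound to haptoglobin, and Folr2 binds folate. Chil3 (Ym1) and Retnla (Fizz1) are secreted proteins that IL-4 induces strongly in mouse macrophages.

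Values were TPM, transcript levels scaled for transcript length and to a common total of 1000000 per library, from which sequencing depth cannot be read, so depth is unknown. Differences are given as log2 fold changes of TPM + 1, which understate the change of low genes. They were tested with limma over 11096 genes with a mean of at least 1 TPM, with Benjamini-Hochberg adjustment and a threshold of 0.05. Whether replicates are separate animals or cultures is not labelled, so the p-values reflect a spread between samples that may be technical. KO M0, with 1 library, borrows its spread from the replicated groups.

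The labels were checked against marker genes before the results. Tgm2 stood at 19.4 and 19.2 TPM in KO LPS, 233 and 199 TPM in WT LPS, 50.7 TPM in KO M0, and 433 and 368 TPM in WT M0. Xist, an RNA of female cells, was found in WT LPS, with 47.2 and 55.4 TPM, but did not exceed 0.00535 TPM in any of the other 5 libraries, although all are labelled male, and the Y-linked gene Eif2s3y stood at 32.8 and 37.2 TPM in WT LPS against 66.1 to 78.3 TPM in the others. The WT LPS libraries therefore stand apart, and in each comparison that uses them this cannot be told apart from the labelled condition. Each of the 7 macrophage markers checked was present, and Lyz2, Csf1r and Adgre1 ranged from 28492 to 42151, from 1982 to 3248 and from 1111 to 1715 TPM. Not all were steady with LPS. Cd68 stood at 666 and 474 TPM in KO LPS against 1845 TPM in KO M0. In wild-type cells it stood at 648 and 684 TPM with LPS against 1679 and 1682 TPM without. Csf1r was also lower and Fcgr1 higher with LPS in both genotypes by limma. By the median absolute difference of log2 values, WT M0 replicate 2 was nearer to KO M0 (0.0959) than to its own replicate (0.221).

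In untreated cells 4 of the 8 markers were abundant, and Mrc1 and Clec7a led. Mrc1 stood at 323 TPM in KO M0 and at 212 and 341 TPM in WT M0, which placed it between ranks 434 and 680 of all genes in these libraries. Clec7a stood at 238 TPM in KO M0 and at 171 and 233 TPM in WT M0. Folr2 stood at 145 TPM in KO M0 and at 152 and 131 TPM in WT M0. Clec10a, at 131 TPM in KO M0 and 138 and 162 TPM in WT M0, lay in the same range, so the order of these neighbours is within the spread of the WT M0 pair. Cd163 was lower than these, at 17.3 TPM in KO M0 and 14.7 and 19.1 TPM in WT M0. Mgl2 followed at 9.45 TPM in KO M0 and 10.2 and 12.6 TPM in WT M0.

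The 2 secreted proteins were at or near 0. Chil3 stood at 0.324 TPM in KO M0 and at 0.186 and 0.22 TPM in WT M0. Retnla, on chromosome 16 from 48842609 to 48844461 (GRCm38.p6, protein-coding), was listed at 0 in each of the 7 libraries. The expression of these markers is thus divided, with only 2 genes on the low side. The surface receptors were present in cells grown in M-CSF alone. Chil3 and Retnla were listed at 0 or stood under 2 TPM in all libraries. Of the cytokines that drive alternative activation, Il13 was listed at 0 throughout and Il4 did not exceed 0.158 TPM. Their receptor chain and transcription factor were present: Il4ra stood at 75.7 and 80.8 TPM in KO LPS, 83.5 and 83.1 TPM in WT LPS, 135 TPM in KO M0, and 157 and 154 TPM in WT M0. Stat6 stood at 90.9 and 83.4 TPM in KO LPS, 101 and 109 TPM in WT LPS, 155 TPM in KO M0, and 161 and 162 TPM in WT M0.

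**Figure D1:**
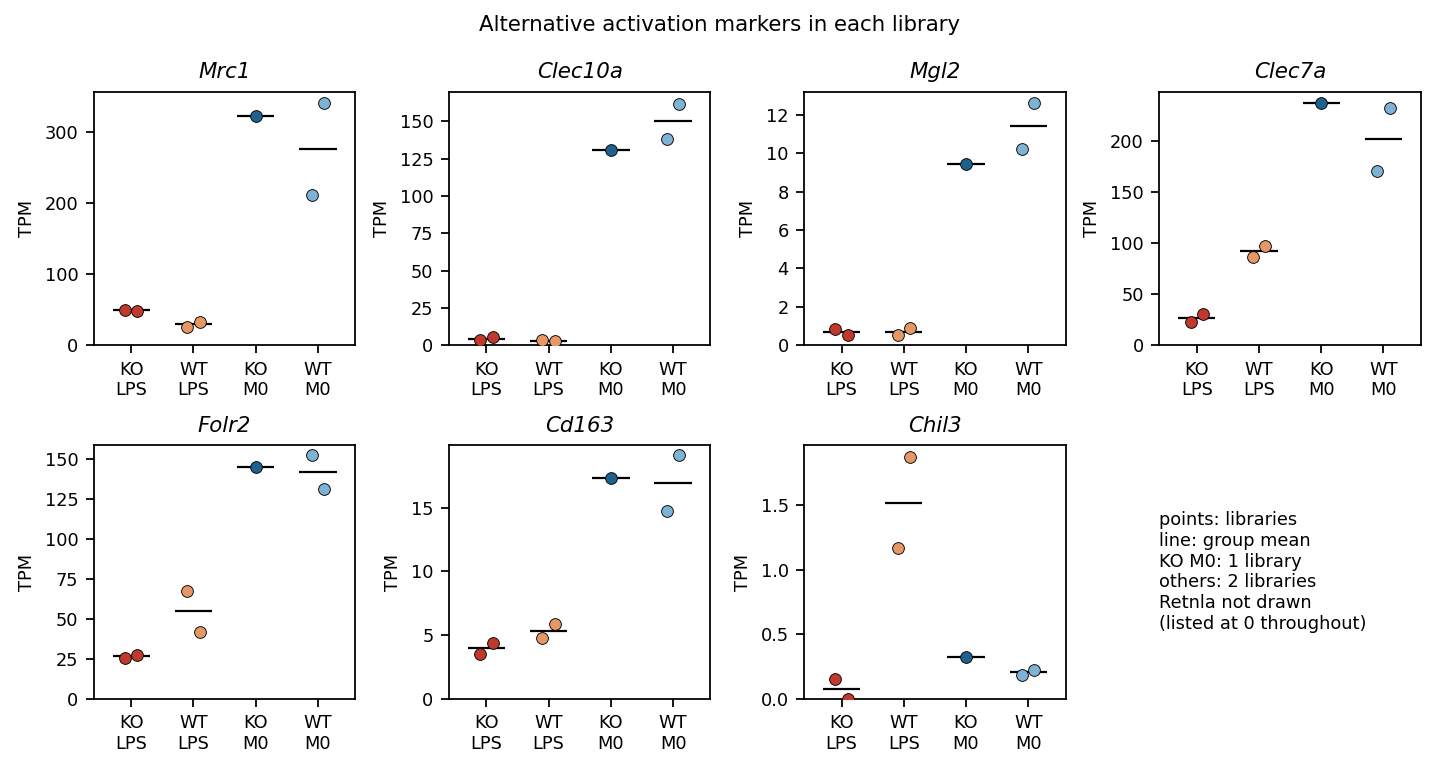
TPM of 7 markers in each of the 7 libraries, 1 linear vertical axis per gene starting at 0, groups along the horizontal axis, points for libraries and lines for group means; Retnla, listed at 0 throughout, is not drawn. The group means of the 6 receptors are lower with LPS in both genotypes, and those of Clec7a and Folr2 are lower in KO LPS than in WT LPS. By limma, 24.3% of all genes tested were lower in KO LPS vs KO M0 and 29.6% in WT LPS vs WT M0.

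The DNA just upstream of the gene starts is shown for Mrc1, Clec7a and Folr2, which of the 6 markers tested had the largest log2 differences between the genotypes under LPS, and for Retnla, which was listed at 0. Each run is the 250 bases before an annotated start, 5′ to 3′ on the gene's own strand, from RefSeq (GRCm38.p6). Capitals mark matches on either strand to the STAT6 motif (TTC and GAA with any 4 bases between them) or to the PU.1 motif GAGGAA, PU.1 being the transcription factor that macrophages depend on.
Mrc1, chr2:14229164-14229413, plus strand: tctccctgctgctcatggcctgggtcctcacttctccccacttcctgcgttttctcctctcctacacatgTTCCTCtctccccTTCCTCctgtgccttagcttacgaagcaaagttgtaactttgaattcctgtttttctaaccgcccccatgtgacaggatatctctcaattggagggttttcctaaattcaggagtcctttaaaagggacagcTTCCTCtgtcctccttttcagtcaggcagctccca
Clec7a, chr6:129472786-129473035, minus strand: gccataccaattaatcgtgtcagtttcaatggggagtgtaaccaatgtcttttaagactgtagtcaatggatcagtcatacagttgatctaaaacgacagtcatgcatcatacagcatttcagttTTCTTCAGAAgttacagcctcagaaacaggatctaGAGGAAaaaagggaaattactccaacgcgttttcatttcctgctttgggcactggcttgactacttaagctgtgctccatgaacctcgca
Folr2, chr7:101857191-101857440, minus strand: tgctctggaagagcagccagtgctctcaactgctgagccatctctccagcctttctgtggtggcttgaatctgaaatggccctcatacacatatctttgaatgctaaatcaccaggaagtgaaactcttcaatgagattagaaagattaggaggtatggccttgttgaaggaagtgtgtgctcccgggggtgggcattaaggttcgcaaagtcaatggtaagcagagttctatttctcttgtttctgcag
Retnla, chr16:48842359-48842608, plus strand: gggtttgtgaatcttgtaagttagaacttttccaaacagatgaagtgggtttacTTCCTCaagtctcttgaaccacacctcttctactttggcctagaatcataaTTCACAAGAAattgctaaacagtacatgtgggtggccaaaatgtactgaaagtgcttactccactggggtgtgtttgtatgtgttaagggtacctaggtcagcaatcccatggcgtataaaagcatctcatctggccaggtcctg

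Retnla held the STAT6 letters at 145 to 136 bases before its start, and Clec7a held them at 125 to 116. The STAT6 motif occurs in 5.85% of 32841 such windows. Mrc1 held the PU.1 letters 3 times on the opposite strand, at 180 to 175, 167 to 162 and 35 to 30 bases before its start, Retnla held them at 196 to 191 on the opposite strand and Clec7a at 90 to 85. That short motif occurs in 23.3% of windows. The Folr2 window held neither, nor the AP-1 motif TGANTCA (6.75% of windows), the GAS motif (TTC and GAA with any 3 bases between them, 7.02%) or the NF-kappaB motif (7.25%). Of the other markers, the window of Chil3 held a GAS match and that of Mgl2 a PU.1 match, while that of Cd163 held none of the 5 motifs. No upstream sequence of Clec10a was available, so it was not scanned. The other annotated Folr2 start, inside the gene, had an AP-1 match at 74 to 68 bases before it. These matches describe letters and not bound sites.

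Within 6 hours of LPS the 6 receptors fell in knockout and in wild-type cells. All 6 tested members were lower in KO LPS than in KO M0 and all 6 were lower in WT LPS than in WT M0, while 38.1% of all genes tested passed in the first of these comparisons (24.3% lower) and 44.6% in the second (29.6% lower). The median log2 fold change of the 6 was -2.66 in KO LPS vs KO M0, against -0.24 over all genes tested, and -2.18 in WT LPS vs WT M0, against -0.21. Mgl2 was under 1 TPM in all 4 LPS libraries and passed the filter through the untreated ones. How many of all genes tested have every LPS library below every untreated one was not counted. Such separation is therefore given below only as a description of single genes. In bulk RNA, fewer cells of a type and less RNA per cell cannot be told apart. WT LPS does not enter KO LPS vs KO M0, so leaving out both of its libraries could alter only the shared spread and the genes tested. The fold changes of the 6 were unchanged. Scaling by median ratios brought the median gene close to 0 in both comparisons and left the 6 lower in each, while all genes then split into 2110 higher and 1849 lower in KO LPS vs KO M0, against 1533 and 2700 as deposited, and into 2485 higher and 2288 lower in WT LPS vs WT M0, against 1665 and 3284.

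Clec10a fell furthest. It stood at 3.14 and 5.18 TPM in KO LPS against 131 TPM in KO M0, and at 3.18 and 2.79 TPM in WT LPS against 138 and 162 TPM in WT M0. The LPS libraries all lay far below the untreated ones, and 3.18% of the untreated level remained in knockout cells and 1.99% in wild-type cells. By limma its log2 fold change was -4.70 (SE 0.27, adjusted p 8.8e-07) in knockout cells and -5.24 (SE 0.22, 6.2e-08) in wild-type cells.

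Mgl2, the other galactose-type lectin, fell with it. It stood at 0.857 and 0.551 TPM in KO LPS against 9.45 TPM in KO M0, and at 0.513 and 0.887 TPM in WT LPS against 10.2 and 12.6 TPM in WT M0. No LPS library reached 1 TPM, with log2 fold changes of -2.62 (SE 0.28, limma adjusted p 4.7e-05) in knockout cells and -2.87 (SE 0.23, 4.4e-06) in wild-type cells. Clec10a and Mgl2 lie 29080 bases apart on chromosome 11, at 70166623 to 70170836 and 70130125 to 70137542 (GRCm38.p6). Their longest transcripts are 94.3% identical over 810 aligned bases with an identical run of 183 bases, so the division of reads between them is uncertain. The ratio of Clec10a to Mgl2 TPM was 3.66 and 9.41 in KO LPS, 6.19 and 3.15 in WT LPS, 13.8 in KO M0, and 13.5 and 12.9 in WT M0. Clec10a was thus above Mgl2 in each of the 7 libraries. Under LPS the ratios overlapped between the genotypes, and all were below those of untreated cells. These LPS ratios rest on Mgl2 values under 1 TPM.

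Mrc1, on chromosome 2 from 14229414 to 14332023 (GRCm38.p6, protein-coding), fell in both genotypes. It stood at 50.1 and 47.7 TPM in KO LPS, 26.1 and 31.9 TPM in WT LPS, 323 TPM in KO M0, and 212 and 341 TPM in WT M0. The KO LPS libraries lay above the WT LPS libraries, a difference that did not pass the test (limma adjusted p 0.0776). All 4 lay below the untreated ones. The log2 fold change with LPS was -2.70 (SE 0.27, limma adjusted p 2.8e-05) in knockout cells and -3.17 (SE 0.22, 1.7e-06) in wild-type cells. KO LPS averaged 48.9 ± 1.71 TPM and WT LPS 29.0 ± 4.12 TPM (SD, n = 2 each).

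Clec7a, on chromosome 6 from 129461591 to 129472785 (GRCm38.p6, protein-coding), fell more in knockout cells than in wild-type cells. It stood at 22.5 and 30.8 TPM in KO LPS, 86.8 and 97.5 TPM in WT LPS, 238 TPM in KO M0, and 171 and 233 TPM in WT M0. The 4 LPS libraries lay below the untreated ones, and the KO LPS pair lay well below the WT LPS pair. The log2 fold change with LPS was -3.13 (SE 0.25, limma adjusted p 6.2e-06) in knockout cells and -1.11 (SE 0.20, 0.00135) in wild-type cells, so that 11.2% of the untreated level remained in KO LPS and 45.6% in WT LPS. A predicted long non-coding RNA gene overlaps Clec7a over 11195 bases, measured from gene start to gene end with introns included. Shared exons were not checked, and whether reads were counted by strand is not stated, so some reads could belong to the other gene.

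Folr2, on chromosome 7 from 101839988 to 101857190, and Cd163, on chromosome 6 from 124304636 to 124330529 (GRCm38.p6, both protein-coding), fell as well. Folr2 stood at 25.7 and 27.5 TPM in KO LPS, 67.3 and 41.9 TPM in WT LPS, 145 TPM in KO M0, and 152 and 131 TPM in WT M0. Its log2 fold change with LPS was -2.41 (SE 0.26, limma adjusted p 5.7e-05) in knockout cells and -1.39 (SE 0.22, 0.00047) in wild-type cells. All LPS libraries were below all untreated ones, and the KO LPS pair was below the WT LPS pair, whose 2 values were far apart. Cd163 stood at 3.54 and 4.38 TPM in KO LPS, 4.73 and 5.89 TPM in WT LPS, 17.3 TPM in KO M0, and 14.7 and 19.1 TPM in WT M0. It had log2 fold changes of -1.89 (SE 0.26, limma adjusted p 0.00029) in knockout cells and -1.50 (SE 0.22, 0.00029) in wild-type cells. The LPS and untreated libraries of Cd163 did not overlap either.

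Chil3, a secreted chitinase-like protein whose gene lies on chromosome 3 from 106147554 to 106167564 (GRCm38.p6), was higher in WT LPS than in the other groups at a very low level. It stood at 0.154 TPM and was listed at 0 in KO LPS, and stood at 1.17 and 1.87 TPM in WT LPS, 0.324 TPM in KO M0, and 0.186 and 0.22 TPM in WT M0. Both WT LPS libraries lay above the other 5. Its mean over the 7 libraries was 0.561 TPM, under the filter, so it was not tested with the others. With no filter on low values it passed in KO LPS vs WT LPS (log2 fold change -1.22, SE 0.16, limma adjusted p 0.0425) and in WT LPS vs WT M0 (1.05, SE 0.16, 0.00972). It did not pass in KO LPS vs KO M0 (-0.30, SE 0.19, 0.318), nor in the difference of the LPS responses (-1.35, SE 0.25, 0.178). Without the filter 16164 genes were tested, of which 1.9% passed in KO LPS vs WT LPS, 29.9% in WT LPS vs WT M0, 24.4% in KO LPS vs KO M0 and 0.0619% in the difference of the responses. The longest transcript of Chil3 is 94.4% identical to that of its neighbour Chil4 over 1538 aligned bases. Reads of the pair cannot be assigned with certainty, and Chil4 was listed at 0 in each library.

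**Figure D2:**
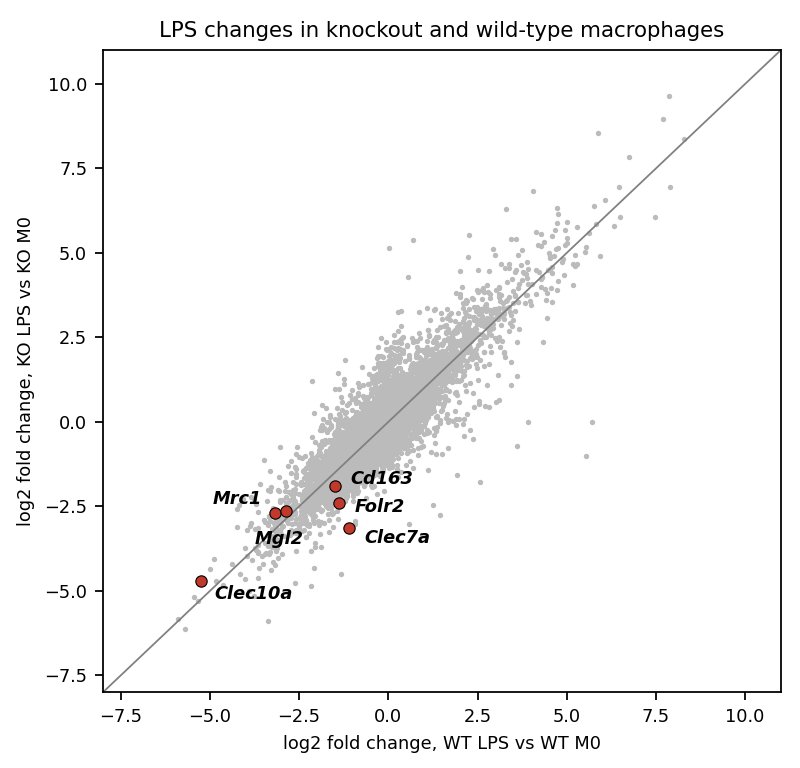
Log2 fold change with LPS of all genes tested, knockout cells on the vertical axis and wild-type cells on the horizontal axis, with the 6 tested markers in red and the line of equal change. Clec7a, Folr2 and Cd163 lie below the line and Clec10a, Mrc1 and Mgl2 lie slightly above it.

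Between the genotypes under LPS, 0 of the 6 tested markers were higher and 2 were lower, Clec7a and Folr2, while 7.16% of all genes tested passed in KO LPS vs WT LPS (2.58% lower and 4.59% higher). The median of the 6 was -0.17, against 0.03 over all genes tested. Mgl2 counts among the 6 only through its untreated values, as it was under 1 TPM in each LPS library. With the compared groups alone it was not tested. Clec7a was lower in KO LPS (log2 fold change -1.77, SE 0.20, 95% interval -2.22 to -1.31, limma adjusted p 0.00055), at 28.9% of the WT LPS mean. It passed under each of 14 alternative settings, with log2 fold changes from -1.98 to -1.55 and adjusted p from 0.00028 to 0.0404.

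Folr2 was lower in KO LPS by a smaller margin that rested on single libraries. KO LPS averaged 26.6 ± 1.28 TPM and WT LPS 54.6 ± 18.0 TPM (SD, n = 2 each), a log2 fold change of -0.97 (SE 0.22, 95% interval -1.45 to -0.49, limma adjusted p 0.0229). Without WT LPS replicate 1, the higher of the pair, the log2 fold change was -0.64 (adjusted p 0.149). The call was also lost without KO LPS replicate 1 (0.091) or replicate 2 (0.0798), with median-ratio scaling (0.058) and with no filter on low values (0.151).

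Mrc1 was higher in KO LPS, at 168% of the WT LPS mean, without passing the test. Its log2 fold change was 0.74 (SE 0.22, 95% interval 0.25 to 1.23, limma adjusted p 0.0776), with adjusted p from 0.0337 to 0.315 over 14 alternatives, 4 of which put it past the threshold. For Clec10a the difference was 0.35 (SE 0.22, interval -0.14 to 0.83, adjusted p 0.441) and for Mgl2 0.01 (SE 0.23, interval -0.50 to 0.52, 0.994), whose sign turned under median-ratio scaling and quantile normalization. For Cd163 it was -0.35 (SE 0.22, interval -0.83 to 0.13, 0.43). Differences as large as the outer bounds of these intervals are not excluded. For Mgl2, under 1 TPM in each LPS library, the interval also depends on the value added before the log. With 0.1 added in place of 1 it ran from -0.80 to 0.84.

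**Figure D3:**
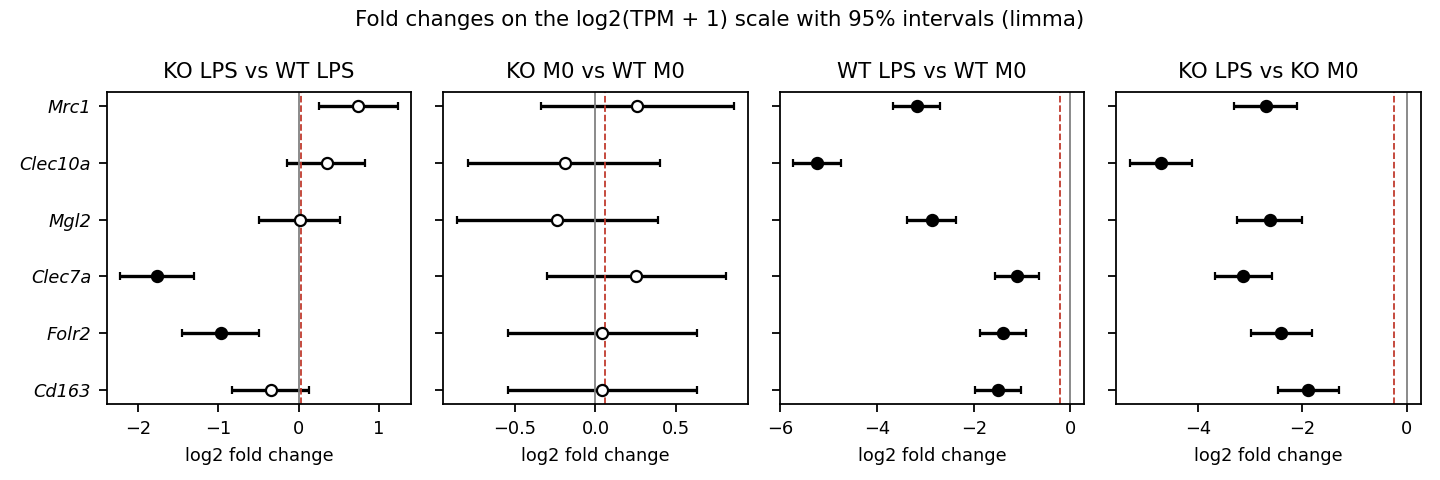
Log2 fold change of TPM + 1 of the 6 tested markers in the 4 comparisons between groups, with 95% limma intervals and a separate horizontal scale per panel. Filled points passed the limma test, open points did not, and the dashed line is the median of all genes tested. The 6 are all left of that line in both LPS comparisons, while in KO LPS vs WT LPS Clec7a and Folr2 are to the left and Mrc1 to the right.

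The LPS response itself differed between genotypes for Clec7a. The knockout response minus the wild-type response was -2.02 log2 units (SE 0.32, 95% interval -2.73 to -1.30, limma adjusted p 0.0167), in a test that 1.37% of all genes passed (0.523% lower and 0.847% higher). Without WT M0 replicate 1 it was -1.80 (adjusted p 0.0937), and with no filter on low values the adjusted p was 0.168. For Folr2 the difference of the responses was -1.01 (SE 0.34, interval -1.77 to -0.26, adjusted p 0.267). For Cd163 (-0.39, adjusted p 0.787), Mgl2 (0.24, 0.887), Mrc1 (0.48, 0.721) and Clec10a (0.54, 0.68) it did not pass either. This test shares its libraries with KO LPS vs WT LPS.

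In untreated cells 0 of the 6 tested markers passed between genotypes, where 0.00901% of all genes tested, the single gene Tgm2, passed by limma and 154 genes had an unadjusted p under 0.05. The log2 fold changes ran from -0.24 (Mgl2, 95% interval -0.86 to 0.39) to 0.26 (Mrc1, interval -0.34 to 0.86), and that of Clec7a was 0.25 (interval -0.30 to 0.81). The signs for Mrc1, Cd163 and Folr2 turned when single WT M0 libraries were left out, and those for Cd163 and Folr2 also with median-ratio scaling. For Mrc1 the KO M0 value of 323 TPM lay between the 2 WT M0 values of 212 and 341 TPM.

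Ratios to Mrc1 within a library set WT LPS apart from the other 3 groups, a description for which no test was run. The ratio of Clec7a to Mrc1 TPM was 0.45 and 0.646 in KO LPS, 3.32 and 3.05 in WT LPS, 0.739 in KO M0, and 0.809 and 0.683 in WT M0. In wild-type cells with LPS, Clec7a was above Mrc1, while in the other 5 libraries Mrc1 was above Clec7a. The ratio of Folr2 to Mrc1 was 0.513 and 0.577 in KO LPS, 2.58 and 1.31 in WT LPS, 0.45 in KO M0, and 0.715 and 0.384 in WT M0. The ratio of Cd163 to Mrc1 was 0.0707 and 0.0919 in KO LPS, 0.181 and 0.184 in WT LPS, 0.0536 in KO M0, and 0.0692 and 0.056 in WT M0. For each of the 3 ratios the WT LPS libraries were the highest of the 7. All 3 divide by Mrc1, which was lowest in WT LPS, so they are not separate observations. The ratio of Clec7a to Folr2 did not set WT LPS apart. It was 0.876 and 1.12 in KO LPS, 1.29 and 2.33 in WT LPS, 1.64 in KO M0, and 1.13 and 1.78 in WT M0. The 8 markers summed to 106 and 116 TPM in KO LPS, 190 and 183 TPM in WT LPS, 864 TPM in KO M0, and 698 and 899 TPM in WT M0.

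**Figure D4:**
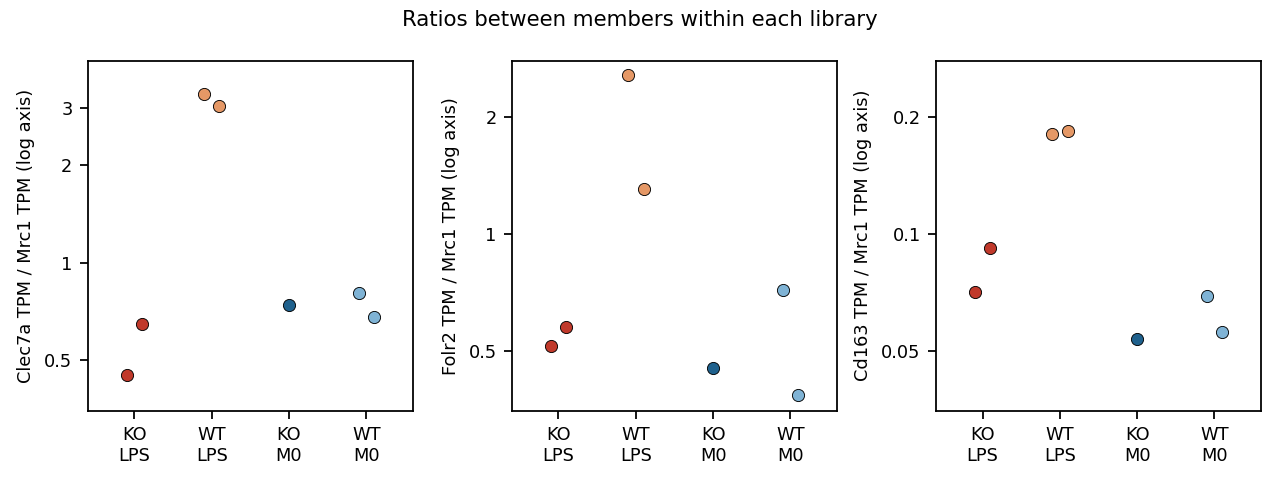
Ratio of Clec7a, Folr2 and Cd163 TPM to Mrc1 TPM in each library, on log axes with their own scales, groups along the horizontal axis. The WT LPS libraries stand above the other 5 in each panel, and for Clec7a to Mrc1 they are at 3.32 and 3.05.

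Genes of the IL-4 and Stat6 pathway moved in both directions with LPS. Of 38 listed genes other than the 8 markers 27 were tested: 7 rose and 14 fell in KO LPS vs KO M0 (median -0.78), and 8 rose and 12 fell in WT LPS vs WT M0 (median -0.62). Over all genes tested, 13.8% rose and 24.3% fell in KO LPS vs KO M0 (median -0.24). In WT LPS vs WT M0, 15% rose and 29.6% fell (median -0.21). Pparg, a lipid-sensing nuclear receptor, stood at 0.151 TPM and was listed at 0 in KO LPS against 33.4 TPM in KO M0, and at 0.671 and 2.04 TPM in WT LPS against 27.3 and 38.7 TPM in WT M0. Slc7a2, an arginine transporter, rose by 5.59 log2 units (SE 0.21) in knockout and 5.63 (SE 0.17) in wild-type cells, and Socs1, an inhibitor of cytokine signalling, by 3.69 (SE 0.28) and 3.38 (SE 0.23). Those that rose include genes that LPS is known to induce, so the list is not specific to IL-4.

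Between KO LPS and WT LPS, 1 of the 27 was higher and 5 were lower (median -0.17). Over all genes tested, 4.59% were higher and 2.58% lower (median 0.03). Arg1, which breaks down arginine, was at 0.91 and 1.22 TPM in KO LPS and 7.69 and 11.2 TPM in WT LPS (log2 fold change -2.32, SE 0.24, limma adjusted p 0.00028). With LPS Arg1 rose in wild-type cells, where the receptors fell (log2 fold change 2.29, SE 0.24, limma adjusted p 2.7e-05). Cd36, a fatty acid and lipoprotein receptor, was at 209 and 248 TPM in KO LPS and 493 and 541 TPM in WT LPS (-1.18, SE 0.17, 0.00179), and the integrin Itgax (-1.25, SE 0.20, 0.00436) and the transcription factor Egr2 (-1.10, SE 0.22, 0.0128) were lower too. Tyk2, a kinase of cytokine receptors, was higher (0.97, SE 0.18, 0.00778). Among the 27, Arg1 and Cd36 passed the test of the difference between the LPS responses, which 1.37% of all genes tested passed.

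Genes of resident macrophages, which share tissue expression with Folr2 and Cd163, mostly fell with LPS. Of 28 listed 22 were tested, of which 1 rose and 15 fell in KO LPS vs KO M0 (median -1.29) and 3 rose and 14 fell in WT LPS vs WT M0 (median -1.47). Over all genes tested, 13.8% rose and 24.3% fell in the first comparison, and 15% rose and 29.6% fell in the second. Between KO LPS and WT LPS 4 were higher and 3 were lower, against 4.59% and 2.58% of all genes tested. Gas6, a ligand of receptors for dying cells, stood at 113 and 117 TPM in KO LPS and 37.3 and 35.4 TPM in WT LPS, and Ltc4s, a leukotriene synthase, was also higher in KO LPS (1.17, SE 0.22, limma adjusted p 0.0089). Cd5l, a secreted scavenger protein, stood at 2.45 and 1.87 TPM in KO LPS and 11.2 and 10.6 TPM in WT LPS. The chemokine Pf4 was lower too (-1.34, SE 0.16, limma adjusted p 0.00062). Members of this list thus passed on both sides between the genotypes.

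The other C-type lectins moved in both directions with LPS. Of 32 listed 15 were tested, and 5 rose and 6 fell in KO LPS vs KO M0, while 6 rose and 3 fell in WT LPS vs WT M0. Over all genes tested, 13.8% rose and 24.3% fell in the first comparison, and 15% rose and 29.6% fell in the second. Clec4e (Mincle), a receptor for mycobacterial glycolipid, stood at 4721 and 5649 TPM in KO LPS against 870 TPM in KO M0, and at 5329 and 5738 TPM in WT LPS against 760 and 750 TPM in WT M0. Between KO LPS and WT LPS 0 of the 15 were higher and 4 were lower (median -0.28), against 4.59% and 2.58% of all genes tested. Clec4d, a partner of Clec4e, stood at 1465 and 1507 TPM in KO LPS and 2878 and 2786 TPM in WT LPS (-0.93, SE 0.14, limma adjusted p 0.00326). Olr1, a receptor for oxidised lipoprotein, was lower by -1.18 (SE 0.21, 0.00623), Clec4a2 by -0.91 (SE 0.19, 0.0148) and Clec4a3 by -0.84 (SE 0.21, 0.0375).

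The 20 genes listed around Clec7a signalling were all tested, and 0 passed between KO LPS and WT LPS by limma (median 0.04). As only 7.16% of all genes tested passed there, a count of 0 among 20 says little. With LPS 9 rose and 5 fell in KO LPS vs KO M0 and 9 rose and 6 fell in WT LPS vs WT M0. Over all genes tested, 13.8% rose and 24.3% fell in the first comparison, and 15% rose and 29.6% fell in the second. Card9, the adaptor below the receptor, stood at 46.3 and 38.4 TPM in KO LPS and 44.2 and 45.2 TPM in WT LPS. Malt1, which acts with Card9, rose with LPS by 1.91 log2 units (SE 0.18) in knockout and by 1.97 (SE 0.15) in wild-type cells.

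Relatives of the other members were few. The folate transporters Slc19a1 and Slc46a1 fell with LPS in both genotypes, with log2 fold changes of -1.94 and -1.38 in knockout and -1.80 and -1.31 in wild-type cells, and did not pass between KO LPS and WT LPS (0.15, adjusted p 0.791, and -0.04, 0.962). Of 5 tested relatives of Cd163 with the same cysteine-rich domain, Marco, a scavenger receptor for bacteria, was higher in KO LPS than in WT LPS (943 and 570 TPM against 194 and 129 TPM) and Cd5l was lower. Of 10 tested genes of haem handling 0 passed between the genotypes under LPS, where 7.16% of all genes tested passed. Of these haem genes, 0 rose and 5 fell in KO LPS vs KO M0, and 3 rose and 3 fell in WT LPS vs WT M0. Over all genes tested, 13.8% rose and 24.3% fell in the first comparison, and 15% rose and 29.6% fell in the second. Of 9 chitinase-like relatives 2 were tested and 0 passed between KO LPS and WT LPS, and of the 3 resistin relatives of Retnla 0 were tested.

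Genes whose levels followed a member most closely were named by Pearson's r of log2 values over the 7 libraries, a description in which the libraries fall into LPS and untreated clusters. Il7r, the interleukin 7 receptor, was nearest to Clec7a (r 0.998), with 23.9 and 29.8 TPM in KO LPS, 86.9 and 88.9 TPM in WT LPS, 223 TPM in KO M0, and 142 and 199 TPM in WT M0. The integrin Itga6 was nearest to Mrc1 (0.999), with 12.3 and 10.9 TPM in KO LPS, 5.77 and 7.58 TPM in WT LPS, 61.3 TPM in KO M0, and 41.2 and 62.1 TPM in WT M0. Their likeness to the marker is what selected both. Arhgap25 was nearest to Folr2 (0.998), Rhobtb1 to Clec10a (0.999), Arrdc3 to Cd163 (0.999) and Bmyc to Mgl2 (0.999).

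Markers of other cell types were summed in each library. Dendritic cells also make Clec10a and Mgl2. Of 7 dendritic cell markers 5 were under 1 TPM in each library, and their sum was 4.13 to 4.70 TPM in KO LPS, 1.54 to 2.99 TPM in WT LPS, 1.38 TPM in KO M0 and 1.75 to 1.94 TPM in WT M0, and its part in the Clec10a and Mgl2 values was not tested. Neutrophils can make Chil3. Of 8 neutrophil markers that were listed, 6 were under 1 TPM in each library and Retnlg was listed at 0, but the sum was 106 to 161 TPM in KO LPS, 208 to 333 TPM in WT LPS, 5.01 TPM in KO M0 and 7.97 to 8.48 TPM in WT M0, nearly all of it S100a8, and its part in the Chil3 values was not tested. Of 7 eosinophil markers Prg2, Prg3, Ear1 and Ear6 were listed at 0, and the sum was 2.29 to 2.70 TPM in KO LPS, 7.46 to 7.54 TPM in WT LPS, 13.6 TPM in KO M0 and 10.8 to 14.2 TPM in WT M0, mostly from Ccr3, and its part in the Clec7a and Folr2 values was not tested. Stromal and endothelial markers summed to 4.87 to 5.77 TPM in KO LPS, 0.494 to 1.08 TPM in WT LPS, 21.4 TPM in KO M0 and 27.7 to 38.1 TPM in WT M0, and their part in the results was not tested. This sum mixes directions: Col1a1 and Col1a2 fell with LPS in both genotypes. Pecam1 stood at 2.12 and 2.3 TPM in KO LPS against 0.676 TPM in KO M0. The 6 mast cell and basophil, 4 B cell and 4 T and NK cell markers that were listed were each under 1 TPM.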

How the data were processed

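Mouse bone marrow-derived macrophages were profiled by RNA sequencing in 7 libraries. The authors deposited TPM per gene for each library, 23337 genes scaled to a total of 1000000. Per the submitters' processing notes the build was mm10. How reads were aligned, assigned and counted by strand is not given in the sources used here. Several members overlap other genes in the annotation (Clec7a, Cd163 and Folr2 overlap long non-coding RNAs, Mgl2 a pseudogene, Mrc1 the microRNA Mir511). Reads of those genes could thus be included. Sequencing depth is unknown.

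A model of 4 group means was fitted to all 7 libraries in limma 3.58.1 (R 4.3.3) on log2(TPM + 1), for 11096 genes with a mean of at least 1 TPM, with trended empirical Bayes variances (3 residual and 7.3 prior degrees of freedom) and Benjamini-Hochberg adjustment over all genes tested at 0.05. There were 5 comparisons. The steps were tested on simulated data. The 8 members and the gene lists were chosen with earlier results of these data known. Members, Tgm2 and the sex-linked genes were always named. From each list up to 5 tested genes with the smallest p in a comparison were eligible, and for each tested member the genes most like it by Pearson's r were eligible, as were the fixed cell type markers and the near-identical copies of members. Il4, Il13, Il4ra, Stat6 and Card9 were named after their values were seen. Not every eligible gene is named, and 1 that would have been is not reported here. The list around Clec7a also holds Galt, an enzyme of galactose metabolism.

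Alternatives were median-ratio scaling, quantile normalization, a pseudocount of 0.1, no filter and a minimum mean of 5 TPM, an adjusted p of 0.01, the compared groups alone, each library left out, both WT LPS libraries left out, and the replicate number as a block. Names were matched to RefSeq (GRCm38.p6, the assembly that mm10 is built on), which also gave coordinates and upstream sequences; 7 members matched by symbol and Chil3 by synonym. Transcripts were aligned with Biopython 1.88 and figures drawn with matplotlib 3.10.9.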

Additional observations from a re-analysis of the deposited data

Results flagged for a closer look

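The LPS response of Clec7a differed between the genotypes by a test of the difference itself: the log2 fold change with LPS in knockout cells minus that in wild-type cells was -2.02 (SE 0.32, limma adjusted p 0.0167). The TPM were 22.5 and 30.8 in KO LPS, 86.8 and 97.5 in WT LPS, 238 in KO M0, and 171 and 233 in WT M0. The knockout side of the difference rests on the single KO M0 library. The wild-type side rests on the WT LPS libraries with Xist at 47.2 and 55.4 TPM, whose part in the result was not tested. Groups of 2 libraries are too small for a search for single outlying samples.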

How the results depend on the processing

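The 6 tested receptors stayed lower with LPS, past the threshold, in both genotypes under every alternative run, and Clec7a stayed lower in KO LPS than in WT LPS. Leaving out both WT LPS libraries kept the fold changes of the 6 in KO LPS vs KO M0, which WT LPS does not enter. With an adjusted p of 0.01 the genes called were 2681 in KO LPS vs KO M0, 362 in KO LPS vs WT LPS and 28 for the difference of the responses, and the markers called were 1 in KO LPS vs WT LPS and 0 for the difference. With no filter on low values the genes called were 307 in KO LPS vs WT LPS, 20 in KO M0 vs WT M0 and 10 for the difference of the responses, with 0 markers for the last. A pseudocount of 0.1 gave 2 genes in KO M0 vs WT M0 and 92 for the difference, and the compared groups alone gave 40 in KO M0 vs WT M0. Median-ratio scaling left 1 marker in KO LPS vs WT LPS. With single libraries left out, the genes called ran from 385 to 804 in KO LPS vs WT LPS, 1 to 6 in KO M0 vs WT M0 and 16 to 139 for the difference, and the markers from 1 to 3 and 0 to 1 in the first and last of these. The cause of these shifts was not tested.

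Signs turned for small differences. Cd163 in KO M0 vs WT M0 was -0.0012 with median-ratio scaling, -0.02 with quantile normalization and ran from -0.14 (without WT M0 replicate 1) to 0.23 with single libraries left out. Folr2 there was -0.01 with median-ratio scaling and ran from -0.06 (without WT M0 replicate 2) to 0.15, and Mrc1 ran from -0.08 (without WT M0 replicate 1) to 0.60. Mgl2 in KO LPS vs WT LPS was -0.0035 with median-ratio scaling, -0.09 with quantile normalization and ran from -0.15 to 0.17 with single libraries left out, being negative without KO LPS replicate 1 (-0.12) or WT LPS replicate 1. Of the values for single markers under the alternatives, 396 kept direction and side of the threshold, 9 lost the call, 4 gained it (all Mrc1 in KO LPS vs WT LPS) and 10 turned.

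The labels do not say that a shared replicate number pairs libraries. Deviations from the group means correlated at 0.181 between KO LPS and WT LPS, 0.298 between KO LPS and WT M0 and 0.0804 between WT LPS and WT M0. With the replicate block the genes called were 1115 in KO LPS vs WT LPS, against 795, and 5632 in WT LPS vs WT M0, against 4949; the markers called were 3 and 6, against 2 and 6, the added one being Mrc1 (adjusted p 0.0408). With 1 or 2 libraries per group, and TPM without depth, markers near 1 TPM such as Mgl2 and Chil3 are measured with unknown precision.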
